A study of Mus musculus with 2 samples.

Results

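The isoprenoid fork comprised 10 genes of the 32285 listed in both count matrices: Idi1, Idi2, Fdps, Fdft1, Sqle, Ggps1, Pdss1, Pdss2, Dhdds and Nus1. The genes were chosen by symbol, and all 10 were found in both matrices. They were measured in single cells of back skin and of the preputial gland (PG), a large sebaceous-like gland of male rodents. The tissues came from 3 male wild type C57BL/6 mice aged 52 weeks, untreated as far as the labels say. The material of the mice was pooled by tissue, and each tissue gave 1 droplet-based library, named as 3′ in the paper. There were therefore no replicates, no difference was tested, and a difference between the tissues cannot be told apart from a difference between the libraries. The question was how transcripts of the sterol branch and of the non-sterol branches of farnesyl diphosphate were distributed over keratinocyte layers, hair matrix, sebocyte stages and stroma.

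The mevalonate pathway makes the C5 unit isopentenyl diphosphate, which the isomerases Idi1 and Idi2 interconvert with its reactive isomer. Fdps joins these units into farnesyl diphosphate, the branch point of the pathway. In the sterol branch, squalene synthase (Fdft1) makes squalene and squalene epoxidase (Sqle) oxidises it on the way to cholesterol. In the non-sterol branches, Ggps1 makes geranylgeranyl diphosphate, which is used to prenylate proteins. Pdss1 and Pdss2 form the enzyme that builds the polyprenyl tail of ubiquinone, the electron carrier of mitochondria. Dhdds and Nus1 form the cis-prenyltransferase for dolichol, the lipid carrier of N-glycosylation. Sebaceous cells fill with neutral lipid as they mature and then disintegrate to release sebum.

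After filtering for at least 500 genes, at least 1000 unique molecular identifiers (UMIs) and at most 10% mitochondrial UMIs, 8899 skin cells and 4699 PG cells remained. They held 27407186 and 15270076 UMIs, with a median of 2386 and 2729 UMIs per cell. The skin list of barcodes held 6794880 entries and the PG list 737280, and no kept barcode occurred in both libraries. The lists shared 77142 entries. The 2 libraries were thus counted with different barcode lists, although the labels name the same kit for both. The same kit can therefore not be assumed for both, and a difference in chemistry was not tested. The effect of such a difference cannot be told apart from tissue in any ratio of PG over skin. Cells were assigned to classes by the UMIs of fixed marker genes, none of which makes isoprenoids or sterols, and the class names mean marker-like cells only. Skin gave 3225 basal-like, 992 spinous-like, 145 granular-like, 573 hair matrix-like and 236 inner root sheath-like cells, next to 708 upper follicle-like and 480 bulge-like cells. PG gave 1729 basal-like and 667 duct-like cells, and no cell was gated as spinous-like, granular-like, hair matrix-like or inner root sheath-like. The upper follicle and duct gate came before the spinous gate of 100 marker UMIs per 10000. Duct-like PG cells had a median of 79.9 spinous-marker UMIs per 10000, against 53.4 in upper follicle-like skin cells. Cells intermediate between basal-like and spinous-like numbered 336 in skin and 86 in PG. Sebocyte-like cells were divided into early cells with basal keratin and integrin transcripts, late cells with at least 10 UMIs of Awat2, Elovl3, Soat1, Far2 and Cidea per 10000, and cells between these stages. Between-stage cells were kept only with at least 50 sebocyte-marker UMIs per 10000, whereas early and late cells entered at 20 in skin and 30 in PG. The part of this higher cut-off in differences between the stages was not tested. Soat1 esterifies cholesterol, so a gene of sterol use was among the markers that set the late stage. PG held 341 early, 449 between-stage and 172 late cells, whereas skin held only 20, 1 and 16. Of the 10 sebocyte markers, 10 were enriched in late skin cells and 7 in late PG cells, against 6 and 5 in the early cells. Enriched here means a UMI in at least 10% of the cells and a level a fixed fold above cells outside the sebocyte classes. Markers without any UMI numbered 0 in each late class and 1 in each early class. In PG, 109 of the 962 sebocyte-like cells lay within 25% above the cut-off of the gate. Levels are given as CPM, the UMIs of a gene scaled to 1000000 UMIs of the class. Bracketed 95% intervals are exact Poisson intervals for levels, exact binomial intervals for ratios and exact Clopper-Pearson intervals for shares, and all of them cover counting error only.

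Idi1 and Idi2 are neighbouring paralogs on chromosome 13 of the GRCm38 build, with Idi1 at chr13:8885501-8892451 and Idi2 at chr13:8952863-8960945, both on the plus strand and 60411 bp apart. Fdps lies at chr3:89093588-89101959 on the minus strand and overlaps the protein-coding gene Gm43738 on the same strand. Fdft1 lies at chr14:63145150-63179578 on the minus strand and overlaps Ctsb on the opposite strand, and Sqle lies at chr15:59315077-59331192 on the plus strand. Pdss1 lies at chr2:22895522-22940266 on the plus strand, where Abi1 overlaps it on the opposite strand, and Pdss2 at chr10:43221486-43464882 on the plus strand. Ggps1 lies at chr13:14050659-14063488 on the minus strand and overlaps Arid4b on the opposite strand. Dhdds lies at chr4:133969028-134000918 on the minus strand and Nus1 at chr10:52417547-52440183 on the plus strand. Whether the counting used strand is not given in the sources used here, so counts of the overlapping genes are uncertain to that extent. How reads shared by the Idi paralogs, or by Fdps and Gm43738, were counted is likewise not given.

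RefSeq promoter windows (GRCm38.p6) were at hand for 7 of the 10 genes, namely Idi1, Idi2, Ggps1, Pdss1, Pdss2, Dhdds and Nus1. The 250 bases upstream of each start were searched on both strands for a sterol-response-like element (TCACNCCAC), a CCAAT box (CCAAT), a GC box (GGGCGG) and an E-box (CACGTG). Of 32851 such windows of all genes, 1.05% held the sterol-response-like letters, 33.8% a CCAAT box, 32.7% a GC box and 6.02% an E-box. None of the 7 windows held the sterol-response-like letters. Idi1 held CCAAT boxes 45 and 14 bases and a GC box 69 bases upstream of its RefSeq start, whereas Idi2 held no match. Pdss2 held GC boxes 165, 97 and 31 bases upstream, and Pdss1 held no match. The windows of the Idi pair and of the Pdss pair are shown because the members of each pair work at the same step and differed in level in the data that follow. Capitals mark a match to a motif on either strand. The Idi1 stretch is chr13:8885561-8885590, the Idi2 window chr13:8952613-8952862, the Pdss1 window chr2:22895272-22895521 and the Pdss2 window chr10:43221236-43221485, all on the plus strand. Only 30 bases are given for Idi1, because 105 of the 250 bases of its window lie within the annotated GENCODE gene. The stretch shown and all 3 Idi1 matches lie in that part, upstream of the RefSeq start but not of the annotated gene.
Idi1: ATTGGcgagcccgggcatggtccaaggtgc
Idi2: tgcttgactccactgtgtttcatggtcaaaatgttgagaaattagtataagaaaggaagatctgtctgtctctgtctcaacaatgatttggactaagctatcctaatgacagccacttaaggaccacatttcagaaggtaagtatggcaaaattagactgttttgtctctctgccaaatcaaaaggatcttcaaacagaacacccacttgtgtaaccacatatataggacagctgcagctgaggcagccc
Pdss1: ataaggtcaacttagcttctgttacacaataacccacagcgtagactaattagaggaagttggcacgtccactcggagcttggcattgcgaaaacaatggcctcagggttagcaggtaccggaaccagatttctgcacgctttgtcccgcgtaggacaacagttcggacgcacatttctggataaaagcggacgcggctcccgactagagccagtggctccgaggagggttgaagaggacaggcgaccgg
Pdss2: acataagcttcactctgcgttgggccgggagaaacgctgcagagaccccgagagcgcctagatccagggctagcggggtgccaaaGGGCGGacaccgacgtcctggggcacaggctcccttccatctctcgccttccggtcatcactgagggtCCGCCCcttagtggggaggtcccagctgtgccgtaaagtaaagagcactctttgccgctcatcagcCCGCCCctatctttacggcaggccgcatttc

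Idi1 was the most abundant member in each PG sebocyte stage, and its level differed strongly between the stages. It stood at 1148 CPM [1090, 1209] in early cells, 5881 CPM [5784, 5979] in between-stage cells and 14148 CPM [13928, 14372] in late cells. In skin it stood at 197 CPM [112, 319] in early and 1828 CPM [1548, 2143] in late sebocyte-like cells. The keratinocyte classes of skin were lower than the late skin cells, from 43.7 CPM in bulge-like and 52.2 CPM in basal-like cells to 173 CPM in spinous-like, 172 CPM in hair matrix-like and 196 CPM in inner root sheath-like cells. Spinous-like, hair matrix-like and inner root sheath-like cells lay within the interval of the early skin cells. Single late PG cells ranged from 0 to 54029 CPM, with a median of 10014 CPM and 6 of 172 cells without a UMI. Single late skin cells ranged from 0 to 3841 CPM, with a median of 975 CPM and 3 of 16 cells without a UMI. Thus most late PG cells exceeded the highest late skin cell, but the ranges overlapped. Within early PG cells the level was uneven: the median cell had 242 CPM, and 10 cells held 53.1% of the Idi1 UMIs of the class.

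**Figure D1:**
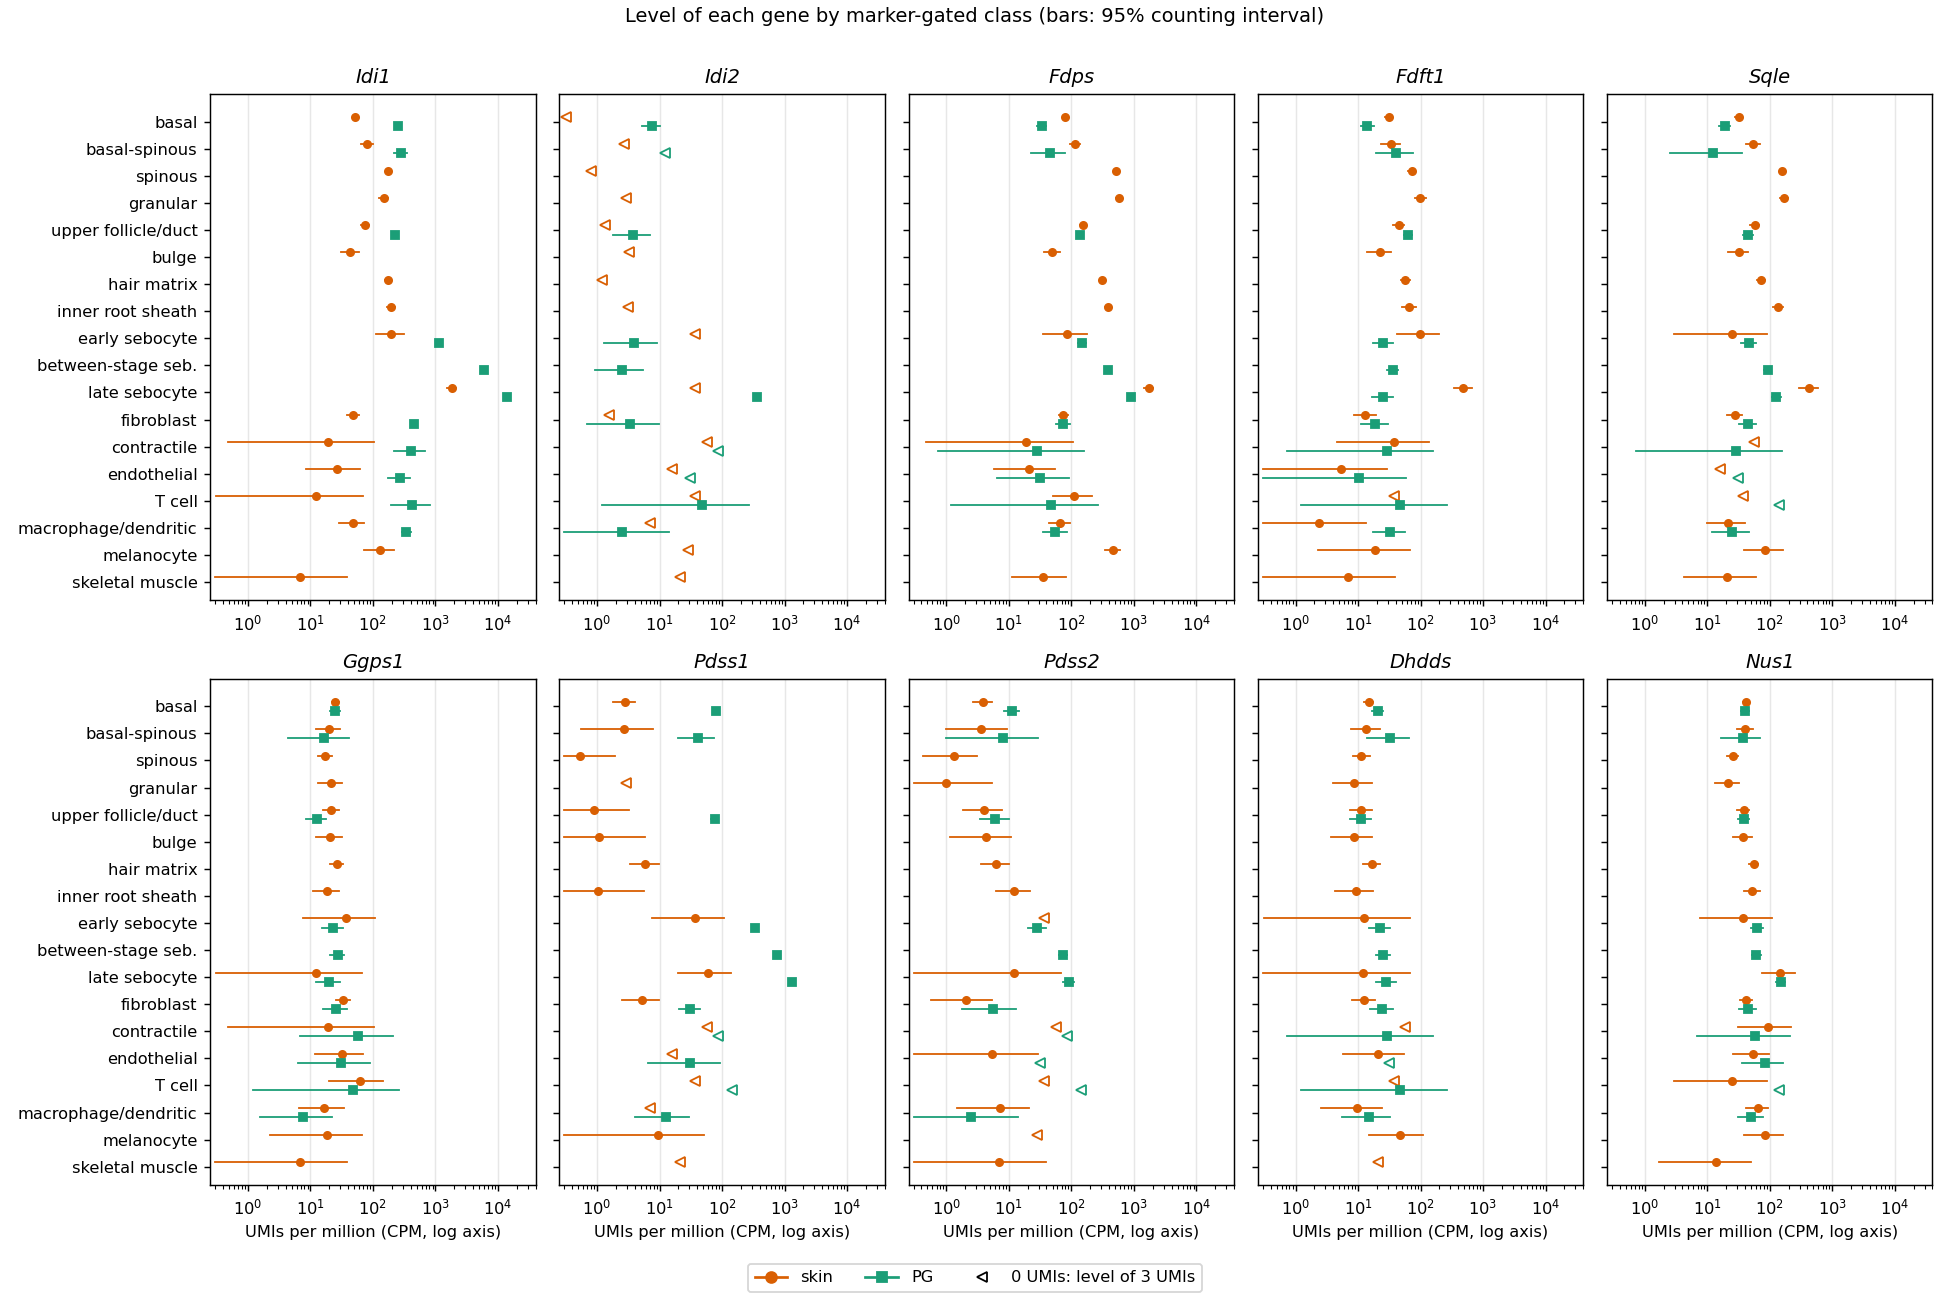
Level of each member (x axis, CPM, log axis) in every class of at least 10 cells (y axis) of skin (circles) and PG (squares). Bars are 95% counting intervals, cut at the left edge, and open triangles mark classes with 0 UMIs at the level that 3 UMIs would give. Idi1 and Pdss1 lie to the right in all PG sebocyte stages, Fdft1 and Sqle are highest in late skin sebocytes, and Ggps1 and Dhdds reach no more than 61.7 CPM, in T cell-like skin cells for Ggps1.

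Outside the PG sebocytes, Idi1 must be read beside the free RNA of the library. PG barcodes with 10 to 100 UMIs, which hold mostly RNA released into the suspension, carried Idi1 at 13111 CPM, against 86.0 CPM in skin. PG basal-like cells had 252 CPM, which is 1.9% of the free RNA level, duct-like cells 229 CPM or 1.7%, fibroblast-like cells 452 CPM or 3.4%, and macrophage- and dendritic-like cells 342 CPM or 2.6%. The wax synthase gene Awat2, a late sebocyte marker, stood at 2.1% of its own free RNA level in basal-like and 2.0% in fibroblast-like cells. The part of free RNA in the Idi1 levels of these classes was not tested. PG early, between-stage and late sebocytes reached 8.8%, 44.9% and 108% of the free RNA level.

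Idi2, the second isomerase, was found mostly in a few late PG cells. No UMI was found among the 8899 skin cells, which allows a level of up to 0.109 CPM at 3 UMIs over all of them. The limit was far wider in skin sebocytes, at 36.3 CPM in the 16 late cells. Of the 13 skin sebocytes with more than 30 late-marker UMIs per 10000, 0% [0, 24.7] had an Idi2 UMI. In PG, 469 UMIs were found in 60 of 4699 cells, and 404 of them (86.1%) lay in 11 of the 172 late cells. In these cells the lowest count was 3, the median 18 and the highest 125 UMIs. All 11 were among the 40 PG cells with more than 30 late-marker UMIs per 10000, which makes 27.5% [14.6, 43.9] of those 40. For comparison, 1.33% of basal-like, 1.35% of duct-like, 1.47% of early and 1.34% of between-stage cells had an Idi2 UMI. Median depths were 2679 UMIs in basal-like and 3236 in early cells, against 9652 in the 11 late cells with Idi2 and 6400 in the other late cells. Fibroblast-like cells, with a median depth of 1333 UMIs, had an Idi2 UMI in 0.334%, and free RNA carried 107 CPM of Idi2. Of all Idi1 and Idi2 UMIs, Idi2 made up 2.51% [2.28, 2.77] in late, 0.343% [0.111, 0.798] in early and 0.0426% [0.0156, 0.0927] in between-stage cells, against 0.807% [0.709, 0.915] in free RNA. In basal-like cells the share was 2.87% [2.03, 3.93] and the highest cell had 7 UMIs. The part of free RNA in the Idi2 UMIs outside the late class was not tested. Thus Idi1 UMIs outnumbered Idi2 UMIs in the late class as well.

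Fdps, the synthase at the branch point, was high in both late sebocyte classes and in the upper layers of the epidermis. Its level was 1731 CPM [1459, 2039] in late skin sebocytes and 906 CPM [851, 964] in late PG sebocytes. Early cells had 86.1 CPM [34.6, 177] in skin and 146 CPM [126, 169] in PG. In skin it reached 572 CPM in granular-like, 509 CPM in spinous-like, 389 CPM in inner root sheath-like and 312 CPM in hair matrix-like cells, against 80.4 CPM in basal-like cells. Melanocyte-like cells, only 26 in number, had 459 CPM from 49 UMIs. Single late skin cells had a median of 1214 CPM with 1 of 16 cells at 0, and single late PG cells a median of 634 CPM with 25 of 172 at 0.

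The sterol entry genes Fdft1 and Sqle were lower in late PG than in late skin sebocytes. Fdft1 stood at 484 CPM [346, 659] in late skin sebocytes, from 40 UMIs in 12 of 16 cells, and at 25.3 CPM [16.8, 36.6] in late PG sebocytes, from 28 UMIs in 25 of 172 cells. In PG the gene was as low in early cells, at 25.3 CPM [17.3, 35.7], and in between-stage cells, at 35.9 CPM [28.7, 44.4]. The highest PG level was found in duct-like cells at 62.8 CPM. In skin it was 30.9 CPM in basal-like, 71.7 CPM in spinous-like and 99.3 CPM in granular-like cells. Sqle stood at 424 CPM [295, 589] in late skin and 127 CPM [107, 150] in late PG sebocytes. Granular-like and spinous-like skin cells had 170 and 159 CPM of Sqle, and basal-like cells 31.7 CPM.

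Pdss1, a subunit of the enzyme for the ubiquinone tail, showed the opposite tissue pattern. It was higher in each next PG class, from 78.9 CPM in basal-like cells to 335 CPM [304, 369] in early, 764 CPM [730, 800] in between-stage and 1300 CPM [1234, 1369] in late sebocytes. Late skin sebocytes had 60.5 CPM [19.6, 141] from 5 UMIs, and the keratinocyte classes of skin had at most 5.89 CPM, in hair matrix-like cells. Of the 172 late PG cells, 162 had a Pdss1 UMI, with a median of 1041 CPM and a highest value of 4500 CPM, whereas 2 of 16 late skin cells had one. Free RNA of PG carried 519 CPM. PG basal-like and duct-like cells stood at 15.2% and 14.6% of that level, and fibroblast-like and macrophage- and dendritic-like cells at 6.0% and 2.4%. For Idi1 the same 4 classes had 1.9%, 1.7%, 3.4% and 2.6%. Pdss2, the other subunit, was lower but ordered alike in PG, with 11.04 CPM in basal-like, 28.5 CPM in early, 73.1 CPM in between-stage and 91.2 CPM [74.3, 111] in late cells. In skin its highest level was 12.3 CPM, in inner root sheath-like cells.

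The genes of the other non-sterol branches were lower than Pdss1 in PG sebocytes. Ggps1 lay between 12.6 and 27.1 CPM in the PG epithelial classes of at least 100 cells and between 17.1 and 26.3 CPM in the skin keratinocyte classes. Dhdds lay between 11.04 and 28.0 CPM and between 8.52 and 16.5 CPM in the same classes. Nus1, the partner of Dhdds, stood at 149 CPM [127, 174] in late PG sebocytes against 62.4 CPM [49.4, 77.8] in early ones, and at 145 CPM [75.04, 254] from 12 UMIs in late skin sebocytes.

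Sums over the branches show how these levels combined. UMIs of transcript ends were not scaled by length and may be captured unequally, so the shares compare classes rather than genes. Of the UMIs of the 7 branch genes, Fdft1 and Sqle made up 41.7% [39.1, 44.3] in skin basal-like, 80.5% [78.0, 82.8] in spinous-like, 83.7% [79.3, 87.5] in granular-like, 53.9% [49.9, 57.9] in hair matrix-like and 68.4% [62.7, 73.7] in inner root sheath-like cells. In late skin sebocytes the share was 78.9% [69.4, 86.6], and in early ones 10 of 20 UMIs [27.2%, 72.8%] were of these genes. In PG the share was 15.9% [13.7, 18.3] in basal-like, 42.8% [39.0, 46.7] in duct-like, 13.1% [10.7, 15.9] in early, 11.9% [10.7, 13.2] in between-stage and 8.77% [7.54, 10.1] in late cells. Pdss1 alone made up 74.7% [72.7, 76.6] of the branch UMIs in late PG sebocytes and 5.26% [1.73, 11.9] in late skin sebocytes. With Pdss1 left out, the sterol entry share was 34.6% [30.4, 39.0] in late PG and 83.3% [74.005, 90.4] in late skin sebocytes. The tissue difference in share thus became smaller without Pdss1, but the intervals, which cover counting error only, did not overlap. In fibroblast-like cells the intervals overlapped, with 78 of 260 UMIs [24.5%, 36.0%] in skin and 32.6% [25.7, 40.1] in PG.

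**Figure D2:**
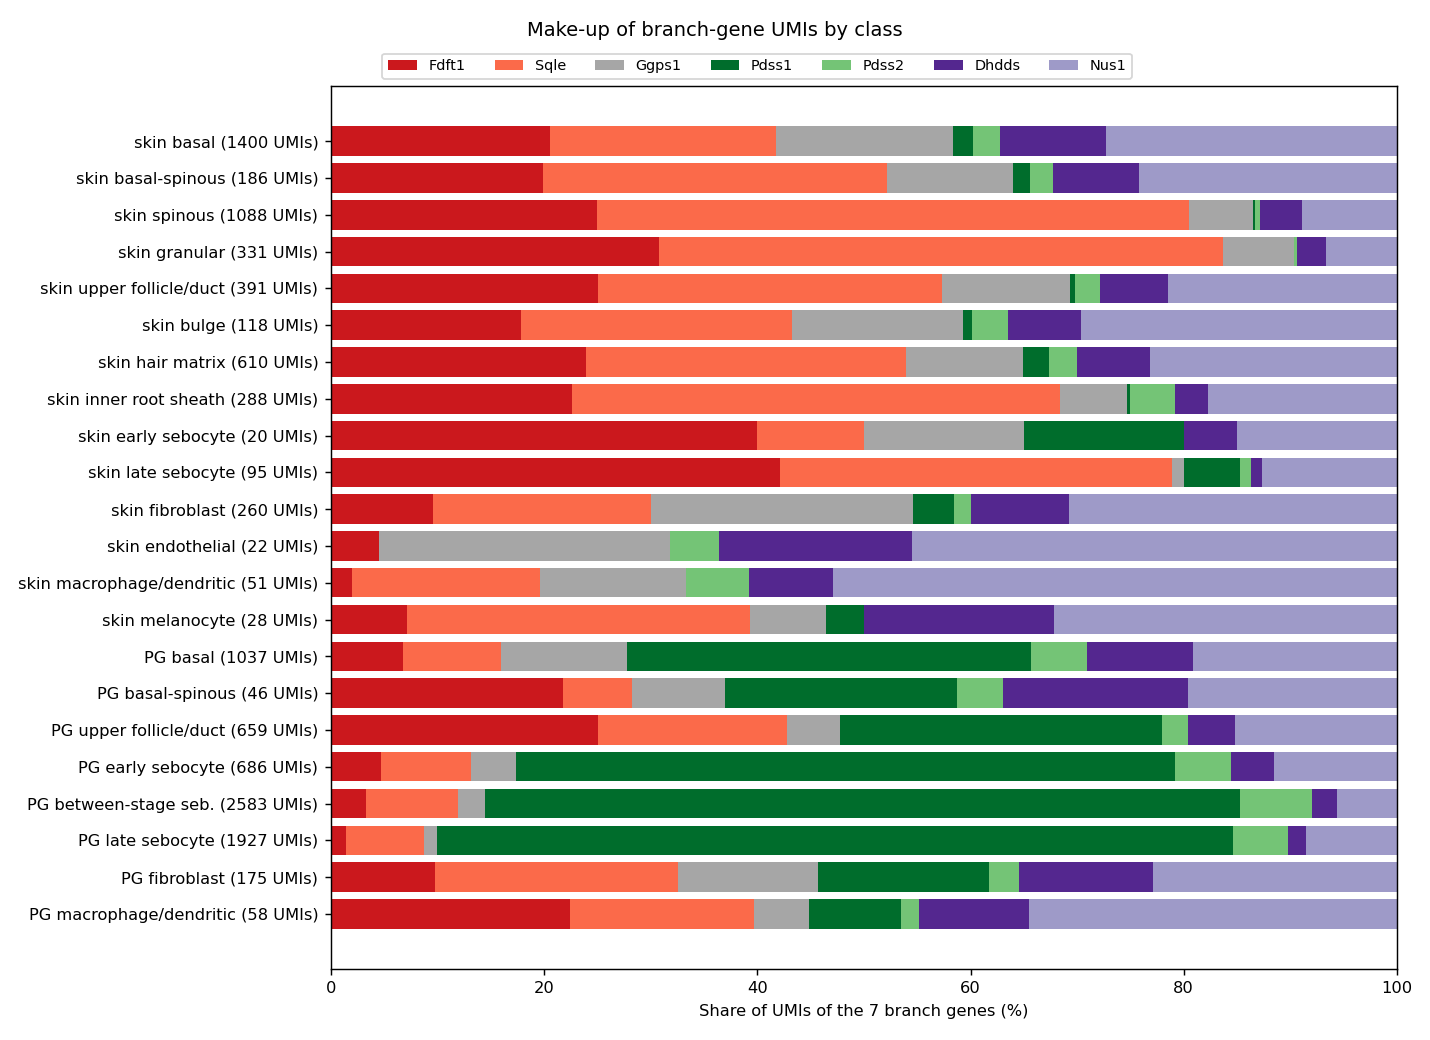
Share of each of the 7 branch genes (x axis, percent of their UMIs) in every class with at least 20 branch UMIs (y axis, with the UMI total of each class). Red shades are the sterol entry genes, green shades the ubiquinone tail genes, and purple shades the dolichol genes. Red fills 78.9% of the bar of late skin sebocytes and 8.77% of that of late PG sebocytes.

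The stages were compared within PG first. A gene was counted as higher or lower where its CPM differed at least 2-fold, among genes with at least 20 UMIs in the pair. By this rule 7 of the 10 members were higher in late than in early PG cells and none was lower, beside 6.89% of the 7836 measured genes that were higher and 17.4% that were lower. The median log2 ratio was 1.58 over the members and -0.25 over all measured genes. Idi1 was 12.3-fold higher, a log2 ratio of 3.62 [3.55, 3.70], Fdps had a log2 ratio of 2.63 [2.40, 2.87], and Idi2 one of 6.53 [5.29, 8.16] from 404 against 5 UMIs. Idi2 reached the minimum of 20 UMIs only through the late class. Sqle had a log2 ratio of 1.47 [1.02, 1.94], Pdss1 1.96 [1.80, 2.12], Pdss2 1.68 [1.12, 2.27] and Nus1 1.26 [0.86, 1.66]. Fdft1 stood apart from the other genes of the squalene route with a log2 ratio of 0.00 [-0.79, 0.78] from 28 against 32 UMIs, while Ggps1 (-0.21 [-1.07, 0.64]) and Dhdds (0.34 [-0.45, 1.13]) were within 2-fold. Summed, the sterol entry genes had a log2 ratio of 1.10 [0.72, 1.49] and the non-sterol genes 1.75 [1.62, 1.89], or 1.08 [0.81, 1.36] without Pdss1. Late cells were also deeper (median 6532.5 against 3236 UMIs) and had a higher mitochondrial share (4.52% against 3.33%). With cells of at most 5% mitochondrial UMIs the non-sterol sum gave 1.45. After thinning each cell to 1000 UMIs the sums gave 1.74 and 1.61, so the order of the sterol and non-sterol sums was not kept.

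Within skin, the 20 early and 16 late cells gave few UMIs. The 4 members that could be measured, Idi1, Fdps, Fdft1 and Sqle, were all higher in late cells, beside 27.1% of 1075 measured genes that were higher and 12.1% that were lower. These 4 reached the minimum of 20 UMIs in the pair mainly through the late class. The filter thus largely set this count, and no conclusion is drawn from it. Log2 ratios were 3.22 [2.47, 4.06] for Idi1 from 151 against 16 UMIs, 4.33 [3.25, 5.67] for Fdps from 143 against 7, 2.30 [1.18, 3.61] for Fdft1 from 40 against 8, and 4.11 [2.15, 7.21] for Sqle from 35 against 2. The sterol entry sum had a log2 ratio of 2.88 [1.93, 4.002]. The non-sterol sum, with 20 against 10 UMIs, had 0.98 [-0.19, 2.24], so that no difference was detectable at this depth. Pdss1 had 5 against 3 UMIs and Nus1 12 against 3. Mitochondrial shares were 4.65% in late and 3.35% in early cells. A limit of 5% mitochondrial UMIs, which left 17 early and 9 late cells, was among the alternatives. Beyond that, the part of these shares in the result was not tested. With thinned cells the non-sterol sum turned to -1.26, and with the PG gate of 30 sebocyte-marker UMIs per 10000 applied to skin it was 2.31, so its direction was not settled.

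A finer division of the 962 PG sebocytes that passed these gates, by their late-marker UMIs, separated Fdft1 from the other trunk and sterol entry genes. Over 5 bins with 246, 250, 280, 146 and 40 cells, Idi1 stood at 644, 3002, 7065, 10805 and 22454 CPM. Fdps followed with 106, 260, 440, 736 and 1337 CPM, and Pdss1 with 304, 558, 821, 1008 and 2056 CPM. Sqle stood at 39.5, 70.7, 98.2, 122 and 142 CPM. Fdft1 had 20.4, 31.4, 37.7 and 36.2 CPM in the first 4 bins and 0 UMIs among 287919 in the 40 cells of the last bin, which allows up to 10.4 CPM at 3 UMIs. The interval of the bin before it was 24.8 to 51.2 CPM. Other genes of the route were detected in these 40 cells: Mvd, which makes isopentenyl diphosphate, had 403 CPM, Lss, the lanosterol synthase, 253 CPM and Msmo1, a sterol demethylation enzyme, 1035 CPM. Dhcr7, a late reductase of cholesterol synthesis named after its value was seen, also had 0 UMIs there, but no more than 2 UMIs in any other bin. Nus1 was level at 59.8 to 84.9 CPM over the first 4 bins and reached 323 CPM [261, 396] in the last. Idi2 stood at 1403 CPM [1270, 1547] in the last bin and at no more than 3.90 CPM in any other. The 11 cells with Idi2 held 4 Sqle UMIs. In skin, the 13 cells of the last bin had 37 Fdft1 and 33 Sqle UMIs, at 496 CPM [349, 683] and 442 CPM [304, 621].

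**Figure D3:**
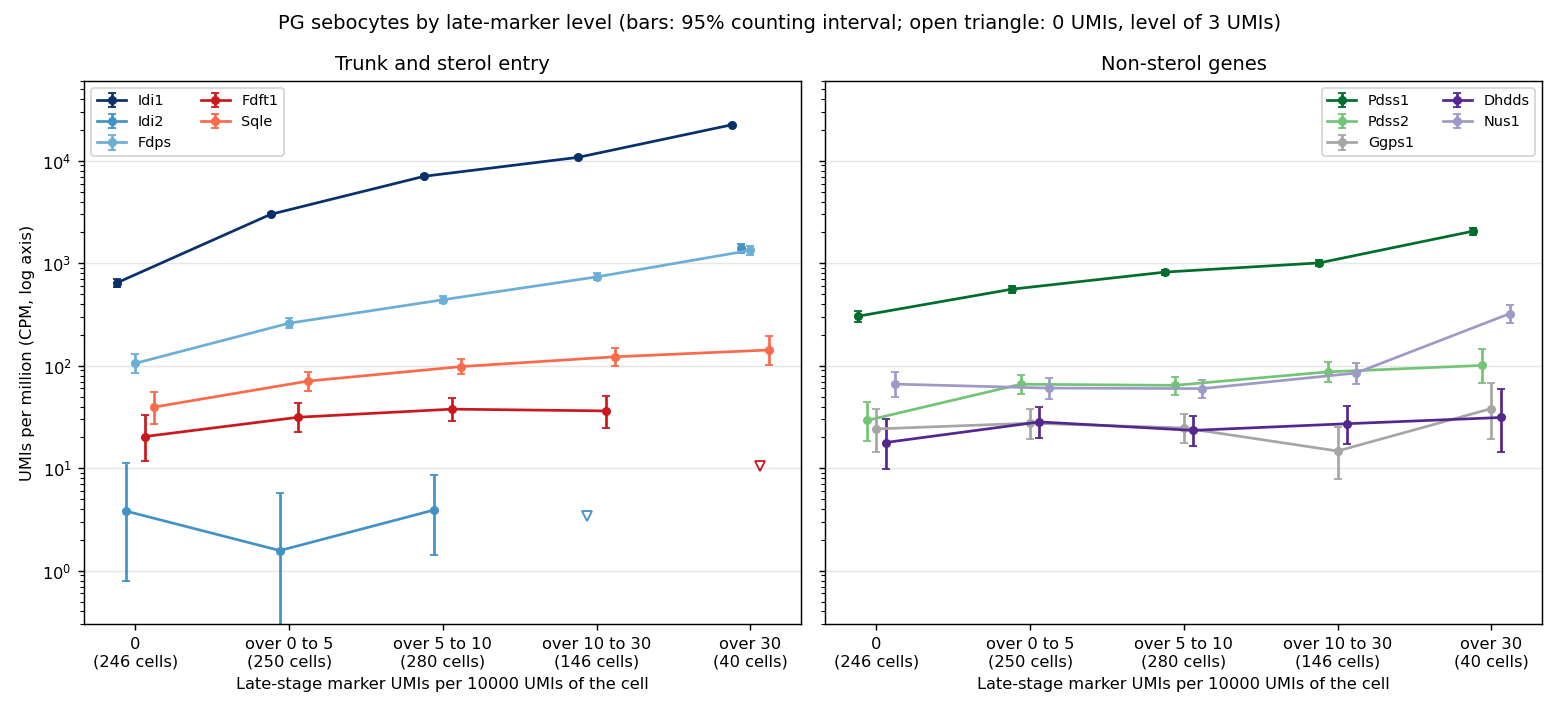
Level of the members (y axis, CPM, log axis) in PG sebocytes binned by late-stage marker UMIs per 10000 UMIs of the cell (x axis, with cells per bin). Points are pooled levels with 95% counting intervals, and open triangles mark 0 UMIs at the level of 3 UMIs. Idi1, Fdps and Pdss1 are higher in each next bin, Fdft1 has 0 UMIs in the last bin, and Idi2 is near 1403 CPM there.

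Between the tissues, all sebocytes of PG were set against all of skin. The mix of stages differed, with 341 early, 449 between-stage and 172 late cells in PG against 20, 1 and 16 in skin. Its part in these pooled ratios was not tested. Of the 10 members 5 were higher in PG and 3 were lower, beside 15.5% of 9372 measured genes that were higher and 21.4% that were lower. Of the higher members, Idi2, Pdss1, Pdss2 and Dhdds reached the minimum of 20 UMIs in the pair only through PG. The filter thus largely set the count of higher members, and no conclusion is drawn from it. Idi1 had a log2 ratio of 2.70 [2.48, 2.93], Pdss1 of 4.02 [3.04, 5.23] from 3693 against 8 UMIs and Pdss2 of 3.45 [0.96, 8.76] from 312 against 1. Idi2, with 415 against 0 UMIs, was higher by at least 2.28 on the log2 scale when the skin class is set to 3 UMIs. Fdft1 was 9.38-fold lower in PG, a log2 ratio of -3.23 [-3.71, -2.73], Sqle had -1.33 [-1.81, -0.80] and Fdps -1.04 [-1.28, -0.79]. Dhdds, which counted as higher with 119 against 2 UMIs, had 1.06 [-0.82, 4.12], an interval that spans 0, and Nus1 (-0.23 [-0.95, 0.59]) and Ggps1 (0.02 [-1.37, 1.92]) were within 2-fold. With sebocytes taken from Leiden clusters in place of marker gates the ratio was -1.84 for Fdft1, 4.18 for Idi1 and 0.04 for Fdps. These clusters gave 128 early and 0 late skin cells, against 315 early, 372 between-stage and 312 late PG cells. The direction for Fdps thus depended on the definition of the class, and the stages were not matched there either. By stage, Fdps stood at 146 CPM in early PG and 86.1 CPM in early skin cells, the latter from 7 UMIs. In late cells it stood at 906 CPM in PG and 1731 CPM in skin.

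In late cells alone the sterol entry genes were again lower in PG. The late classes differed in maturity, with a median of 14.0 late-marker UMIs per 10000 in PG and 51.3 in skin, and its part in the result was not tested. In PG, 68 sebocyte-like cells lay within 25% above the late cut-off, against 0 in skin. Here 5 members, Idi1, Idi2, Pdss1, Pdss2 and Dhdds, were higher in PG (18.8% of 5248 genes) and 2, Fdft1 and Sqle, were lower (13.2%). Pdss2 rested on 101 against 1 UMI, Idi2 on 11 PG cells, and Dhdds, with 31 against 1 UMI, had an interval that spans 0 (1.21 [-1.37, 6.56]). Fdft1 was 19.1-fold lower in late PG cells, a log2 ratio of -4.26 [-5.01, -3.53], and Sqle had -1.73 [-2.28, -1.16]. Idi1 had 2.95 [2.72, 3.19] and Pdss1 4.43 [3.20, 6.05]. Fdps at -0.93 [-1.19, -0.67] and Nus1 at 0.04 [-0.81, 1.02] were within 2-fold, although both intervals reach past 2-fold.

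**Figure D4:**
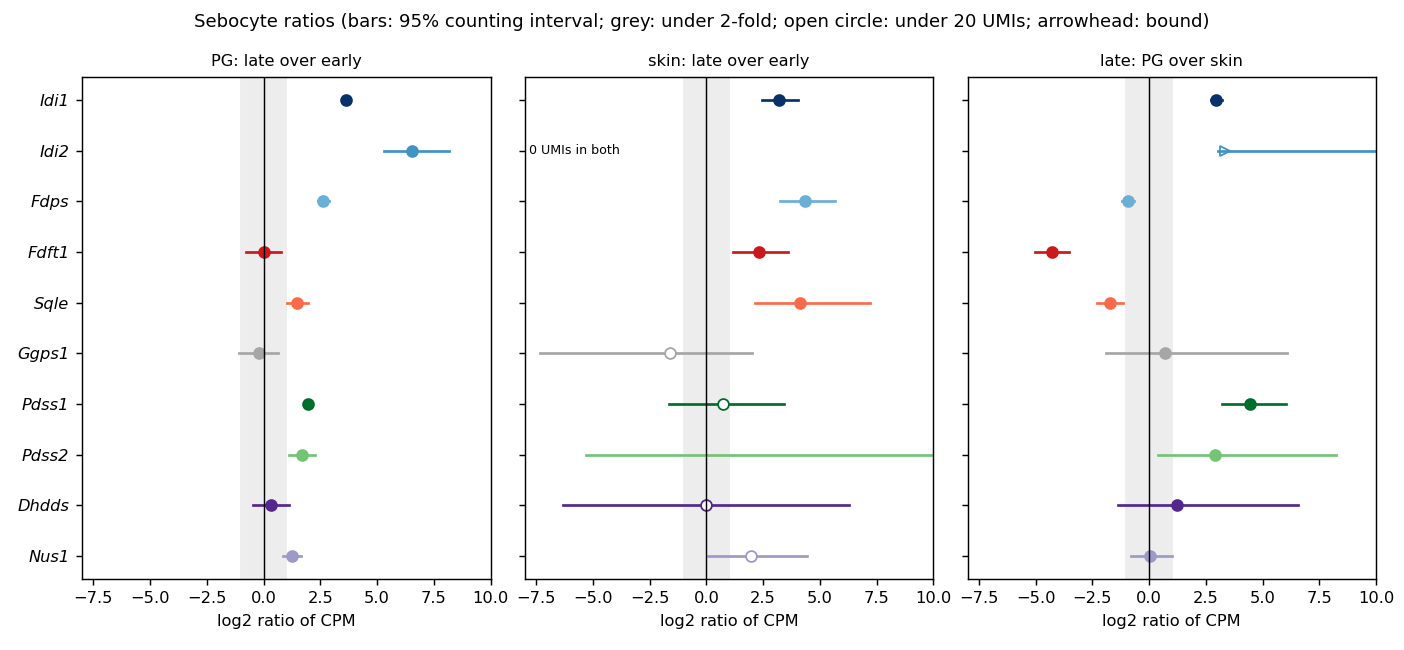
Log2 ratio of CPM (x axis) for each member (y axis) between late and early PG sebocytes, late and early skin sebocytes, and late sebocytes of PG and skin. Bars are 95% counting intervals, the grey band is under 2-fold, open circles mark pairs under 20 UMIs, and the arrowhead is a lower bound. Fdft1 lies at 0.00 in the PG panel, at 2.30 in the skin panel and at -4.26 between the tissues.

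Pdss1 also differed between the tissues in basal-like cells. It was at 78.9 CPM in PG from 393 UMIs and at 2.79 CPM in skin from 26 UMIs, a log2 ratio of 4.82 [4.25, 5.46]. Sebocyte markers moved with it, since the median PG basal-like cell had 14.3 sebocyte-marker UMIs per 10000 and the median skin basal-like cell 0, and their part in the result was not tested. With a sebocyte gate of 20, the PG early class held 543 in place of 341 cells. There Pdss2 had 1.52 [0.88, 2.16], Fdps -1.26 [-1.51, -1.02] and Fdft1 -1.14 [-1.53, -0.75], while Ggps1 (-0.02 [-0.34, 0.30]) and Nus1 (-0.04 [-0.30, 0.21]) were within 2-fold with narrow intervals. Of the 10 members 4 were higher in PG basal-like cells (17.6% of 12202 genes) and 2 lower (17.9%), the higher ones being Idi1, Idi2, Pdss1 and Pdss2, of which Idi1 was at 1.9% of the free RNA level there. Idi2 reached the minimum of 20 UMIs only through PG, and 2 of 10 lower was near the share of all genes. In fibroblast-like cells Idi1 and Pdss1 were higher in PG, 2 of 8 measured members (9.46% of 9123 genes), with log2 ratios of 3.23 [2.90, 3.57] and 2.57 [1.48, 3.77] at 3.4% and 6.0% of the free RNA level. None was lower (9.27%). In this pair Pdss1 reached the minimum of 20 UMIs only through PG. Against PG basal-like cells, early PG sebocytes had 5 members higher (2.84% of 10364 genes) and none lower (8.33%): Idi1 with 2.19 [2.08, 2.30], Fdps with 2.12 [1.81, 2.44], Pdss1 with 2.09 [1.88, 2.29], Pdss2 with 1.37 [0.72, 1.998] and Sqle with 1.26 [0.77, 1.75].

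In the epidermis of skin, trunk and sterol entry genes were higher in the spinous-like than in the basal-like layer, and the non-sterol genes were not. Of 9 measured members 4 were higher (7.59% of 11798 genes) and 2 lower (22.0%). Fdps had a log2 ratio of 2.66 [2.54, 2.79], Sqle of 2.33 [2.12, 2.53], Idi1 of 1.73 [1.56, 1.90] and Fdft1 of 1.22 [0.97, 1.46]. The lower ones were Pdss1 with -2.40 [-5.52, -0.40] from 2 against 26 UMIs and Pdss2 with -1.55 [-3.26, -0.20] from 5 against 36. Nus1 had -0.68 [-1.02, -0.35], Ggps1 -0.54 [-0.96, -0.14] and Dhdds -0.39 [-0.92, 0.11], beside a median of -0.25 over all measured genes. The sterol entry sum had 1.88 [1.73, 2.04] and the non-sterol sum -0.65 [-0.87, -0.43]. From the spinous-like to the granular-like layer none of 7 measured members differed 2-fold (8.86% of 9021 genes higher, 23.6% lower). Fdft1 there had 0.47 [0.13, 0.80] and Fdps 0.17 [0.03, 0.30].

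In hair matrix-like and inner root sheath-like cells, Fdps was the member with the highest log2 ratio over basal-like cells, whereas bulge-like cells had 49.0 CPM of Fdps against 80.4 CPM in basal-like cells. In hair matrix-like cells 4 of 9 measured members were at least 2-fold above basal-like cells (15.8% of 11857 genes) and none was lower (17.7%). These were Fdps with a log2 ratio of 1.95 [1.81, 2.10], Idi1 with 1.72 [1.53, 1.91], Sqle with 1.18 [0.91, 1.45] and Pdss1 with 1.08 [0.06, 2.05] from 15 against 26 UMIs, while Fdft1 had 0.89 [0.60, 1.19]. In inner root sheath-like cells 5 of 9 were higher (12.6% of 11496 genes) and 1 was lower, Pdss1 with 1 UMI against 26, beside 2302 of the 11496 genes (20%). The Pdss1 log2 ratio of -1.45 [-6.80, 1.16] had an interval that spans 0. Fdps had 2.27 [2.09, 2.45], Sqle 2.09 [1.78, 2.39], Idi1 1.91 [1.66, 2.15], Pdss2 1.67 [0.59, 2.64] and Fdft1 1.11 [0.69, 1.499]. In upper follicle-like skin cells none of 9 was 2-fold higher and Pdss1, with 2 UMIs, was lower (6.82% and 10.6% of 11689 genes). That Pdss1 log2 ratio of -1.62 [-4.74, 0.38] also had an interval that spans 0.

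The duct-like cells of PG were the PG class with the most Fdft1. Compared with PG basal-like cells, 3 of 10 members were higher (8.7% of 10801 genes) and none lower (22.6%): Fdft1 with a log2 ratio of 2.16 [1.75, 2.58], Fdps with 2.04 [1.77, 2.31] and Sqle with 1.22 [0.82, 1.63]. Pdss1 (-0.06 [-0.31, 0.19]) and Idi1 (-0.14 [-0.28, 0.00]) were within 2-fold, and Ggps1 had -0.98 [-1.58, -0.41]. Krtdap, a spinous marker, was among the 10 leading genes of the duct-like cells.

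**Figure D5:**
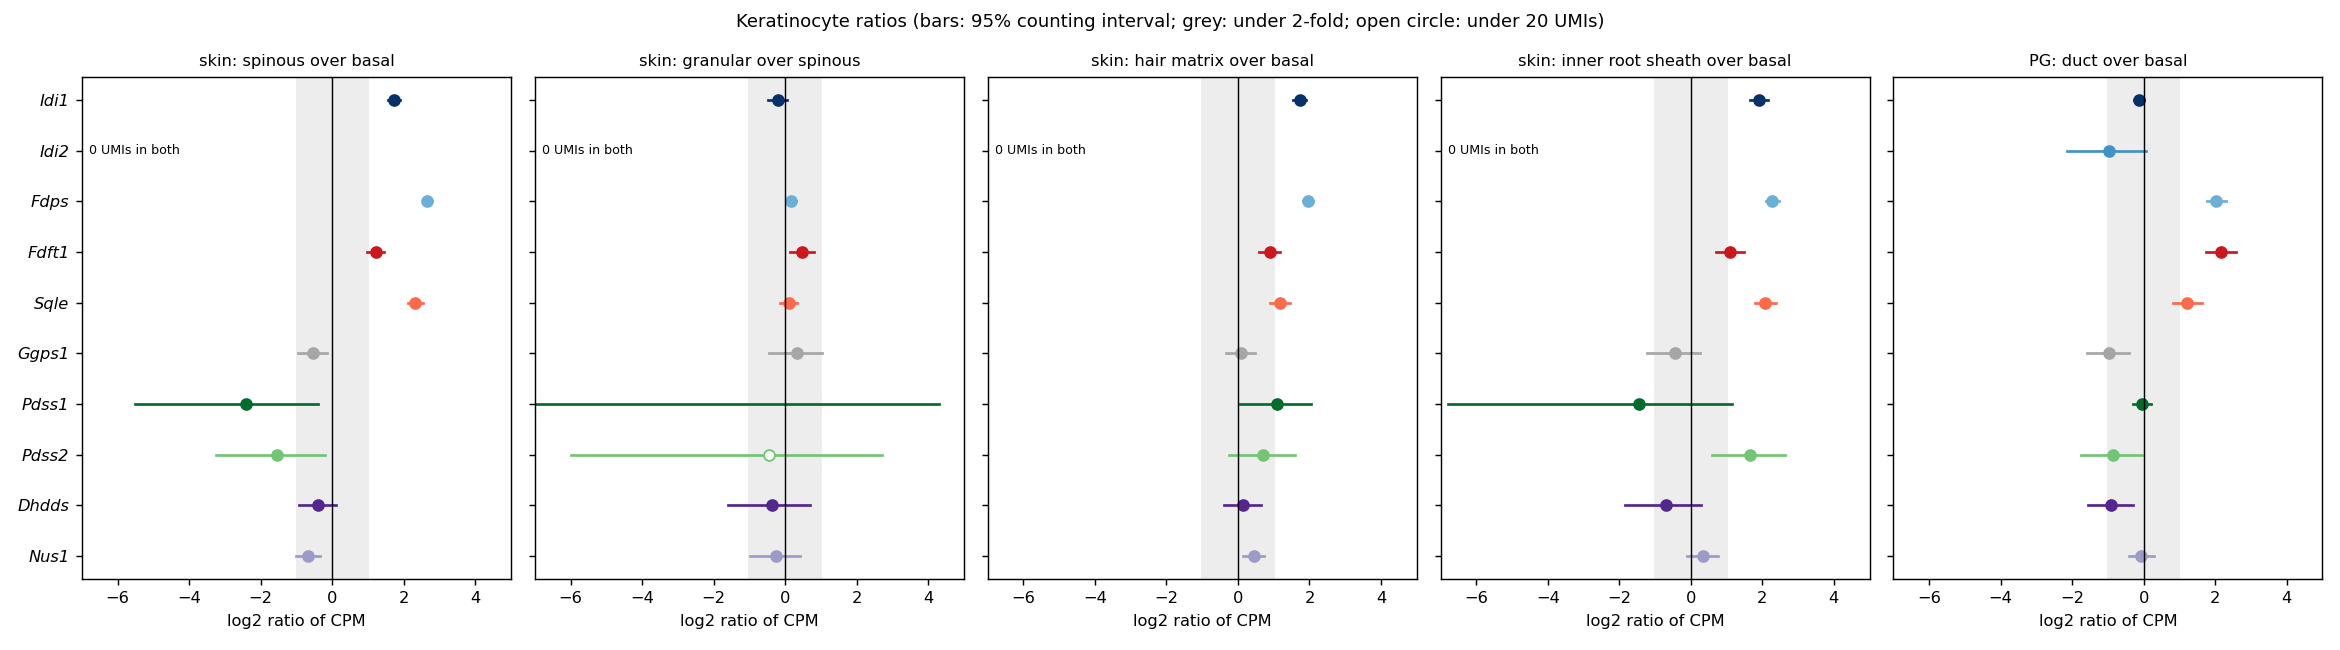
Log2 ratio of CPM (x axis) for each member (y axis) in 4 comparisons of skin classes and in PG duct-like over basal-like cells. Bars are 95% counting intervals, the grey band is under 2-fold, and open circles mark pairs under 20 UMIs. Fdps and Sqle lie to the right of the band in every panel but the granular one, and Idi1 lies in the band in PG.

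In skin stroma the sterol entry genes gave few UMIs. In skin fibroblast-like cells Fdft1 stood at 13.1 CPM and Sqle at 27.7 CPM, and Nus1 (41.9 CPM) and Ggps1 (33.5 CPM) were the leading branch genes. Skin endothelial-like cells had 1 Fdft1 UMI and no Sqle UMI in 89 cells, and macrophage- and dendritic-like cells had 1 and 9 UMIs in 202 cells. The 58 T cell-like skin cells had no UMI of either gene, the 24 contractile-like cells had 2 Fdft1 UMIs and the 51 skeletal muscle-like cells had 1 Fdft1 and 3 Sqle UMIs, so that no order among these classes could be read at this depth. In PG fibroblast-like cells Sqle and Nus1 both stood at 44.3 CPM from 40 UMIs and Fdft1 at 18.8 CPM from 17. PG macrophage- and dendritic-like cells had 32.7 CPM of Fdft1 from 13 UMIs, next to 25.3 CPM in late PG sebocytes, and their Sqle stood at 25.1 CPM.

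Other genes of the pathway were described by lists, again between late and early PG sebocytes. All 6 mevalonate genes were higher, with log2 ratios from 1.70 for Pmvk and 2.38 for Acat2 to 3.40 for Mvd. All 8 measured of 10 genes after squalene epoxide were higher, from 1.39 for Ebp and 1.498 for Hsd17b7 to 2.66 for Msmo1 and 2.70 for Lss. Of 6 measured genes of SREBP regulation and sterol uptake only Insig1 was higher, with 2.26, while Srebf1 had -0.45 and Insig2 -0.86. Of 11 genes for the ubiquinone head group 3 were higher, led by Coq9 with 1.89 and Coq3 with 1.54, while Coq10a had -0.14 and Coq8a -0.90. None of 9 genes of dolichol use (0.77 for Alg5, 0.29 for Dpm2, -0.09 for Dolpp1, -0.64 for Alg6) and none of 9 measured genes of protein prenylation (0.90 for Zmpste24, 0.57 for Chm, -0.44 for Rce1, -0.68 for Pggt1b) was higher. With 6.89% of all measured genes higher, counts of 0 of 9 are near the background. No gene of these lists was lower, and Cox10, which farnesylates haem, had -0.18. In skin spinous-like over basal-like cells 5 of 6 mevalonate genes and 9 of 10 genes after squalene epoxide were higher, beside 7.59% of all measured genes. The counts for dolichol use (0 of 9) and prenylation (0 of 10) were near that background. Between PG and skin sebocytes, 0 of 9 measured genes after squalene epoxide were higher in PG (15.5% of all measured genes) and 5 were lower (21.4%).

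Likeness was taken across 26 classes of at least 20 cells from both libraries. Late skin sebocytes, with 16 cells, were not among them, although they had 1731 CPM of Fdps, 484 CPM of Fdft1 and 424 CPM of Sqle. The genes whose log2(CPM + 10) was most like that of Idi1 across the 26 classes were Scd1 (r = 0.935), Tmem97 (0.925) and Fasn (0.921). Those most like Fdps were Mvk (0.896), Sqle (0.854) and Cyp51 (0.850), and those most like Sqle were Fdps (0.854), Hmgcs1 (0.833) and Thop1 (0.790). Those most like Fdft1 were Epha1 (0.785), Cdc42bpg (0.777) and Rangap1 (0.752). The correlation of Fdft1 with Pdss1 was 0.09 and that of Idi1 with Pdss1 was 0.87. Scd1 is one of the sebocyte markers by which the classes were gated, so its likeness to Idi1 is not independent of the gates. Classes of a library share its free RNA, depth and chemistry, so these values are descriptions over 8576 genes, not tests.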

How the data were processed

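For each tissue the authors deposited raw UMI counts per gene and barcode, written by Cell Ranger 4 according to the file header and aligned to mm10 per the labels. The annotation release is not given in the sources used here. The counts had not been filtered or normalised. A barcode was kept with 500 or more genes, 1000 or more UMIs and a mitochondrial share no higher than 10%. Each cell was gated on fixed marker lists, in UMIs per 10000 UMIs of the cell, and the cut-offs of the gates were set after the data had been seen (for sebocytes 20 in skin and 30 in PG). The members, lists and gates were chosen with earlier results of these data known. UMIs were summed per class and divided by the UMIs of the class. With 1 library per tissue there was no test. A ratio was counted at 2-fold among genes with at least 20 UMIs in the pair, and free RNA was taken from barcodes with 10 to 100 UMIs. Cells with markers of several classes were set aside as mixed. No doublet caller was used in the main values, and alternatives removed cells with high doublet scores or changed filters, gates, depth, scaling and class definition. The members were all named, and list genes were named as the 2 highest and 2 lowest per list, except for items that are not reported here. Intervals were tested only on data simulated with the counting model that they assume. That test could not show how they behave with spread between cells or mice. Python 3.11.15, numpy 2.4.6, scipy 1.17.1, pandas 2.3.3, scanpy 1.11.5 and leidenalg 0.10.2 were used. Positions came from GENCODE for GRCm38 and promoters from RefSeq.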

Additional observations from a re-analysis of the deposited data

Results flagged for a closer look

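Barcodes with over 10% mitochondrial UMIs were left out of every comparison, 232 in skin and 662 in PG, and they held UMIs of most members above the limit that a count of 0 allows. In skin they had 189 CPM of Idi1, 274 CPM of Fdps, 71.2 CPM of Fdft1, 173 CPM of Sqle, 30.1 CPM of Ggps1, 16.4 CPM of Pdss2, 10.96 CPM of Dhdds and 57.5 CPM of Nus1. In PG they had 5721 CPM of Idi1, 39.5 CPM of Idi2, 200.02 CPM of Fdps, 18.0 CPM of Fdft1, 79.1 CPM of Sqle and 22.1 CPM of Ggps1. They also had 495 CPM of Pdss1, 44.2 CPM of Pdss2, 14.5 CPM of Dhdds and 95.4 CPM of Nus1. These barcodes were not assigned to classes.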

How the results depend on the processing

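No paired analysis was possible because each tissue was 1 pooled library with no replicate numbers. Over 8 ratios of branch sums, Fdft1 and Idi1, 126 values under alternatives were computed, of which 98 stayed within the counting interval of the reported ratio, 28 lay outside it and 0 changed sign after being called. For PG late over early cells, the sterol entry log2 ratio of 1.10 became 1.74 with cells thinned to 1000 UMIs, 0.64 with a sebocyte gate of 50 and 0.000296 for Fdft1 alone. The non-sterol ratio of 1.75 became 1.45 at no more than 5% mitochondrial UMIs, 1.60 with an upper UMI limit at the 99th percentile, 2.08 with Leiden clusters, 1.61 with thinned cells, 2.01 with a gate of 20, 1.27 with a gate of 50, 1.41 without late cells over 30 late-marker UMIs and 1.08 without Pdss1. For skin late over early cells, sterol entry became 4.11 for Sqle alone, and the non-sterol ratio became -1.26 with thinned cells and 2.31 with a gate of 30. For PG over skin sebocytes, Fdft1 became -1.84 with Leiden clusters and -3.76 with thinned cells. Idi1 became 2.27 at no more than 5% mitochondrial UMIs, 4.18 with Leiden clusters, 2.33 with a gate of 30 and 2.16 with a gate of 50. For spinous-like over basal-like cells, sterol entry became 2.05 with a larger lead in the gates, 2.12 with free RNA subtracted, 2.06 without cycling cells, 1.22 for Fdft1 alone and 2.33 for Sqle alone. For hair matrix-like over basal-like cells it became 1.26 with thinned cells, 1.35 as a mean of single cells and 1.29 without cycling cells. Over the single members 546 values were computed, of which 491 stayed within the counting interval and 54 lay outside it. Only 1 changed direction after being called, Fdps in PG over skin sebocytes at 0.0388 with Leiden clusters. Changes of sign in ratios that were not called were not counted as such. The cause was not tested, except that sums limited to 1 gene or fewer cells hold fewer UMIs. Gates of 20, 30 and 50 in both libraries and the removal of the most mature late cells were chosen after seeing the data. Leiden clusters gave no late skin class and a gate of 50 left 2 early skin cells, so these stage ratios were not computed.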

Other observations

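Cycling cells of the skin basal-like class, defined by the UMIs of Mki67, Top2a, Cenpf, Birc5, Ube2c and Cdk1, had more trunk and sterol entry transcripts than other basal-like cells. In 349 cycling and 2876 other cells, Fdps had a log2 ratio of 1.08 [0.84, 1.31], Fdft1 of 0.91 [0.51, 1.29], Idi1 of 0.81 [0.51, 1.11] and Sqle of 0.80 [0.41, 1.19]. Pdss1, with 11 against 15 UMIs, had 1.91 [0.65, 3.14], while Nus1 had 0.05 [-0.36, 0.44] and Ggps1 -0.57 [-1.21, 0.01]. In hair matrix-like cells, with 187 cycling and 386 other cells, Idi1 had 0.15 [-0.14, 0.43], Fdps -0.06 [-0.27, 0.15] and Fdft1 0.12 [-0.38, 0.62]. In PG basal-like cells, with 322 cycling and 1407 other cells, Pdss2 had 1.13 [0.29, 1.95], Fdps 0.58 [0.09, 1.06], Fdft1 -0.04 [-0.92, 0.78] and Pdss1 0.02 [-0.33, 0.35]. The difference between these classes was not tested.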
